A study of Mus musculus with 16 samples.

Results

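The genes described here are 28 members of a list built around the cholesterol pathway of the mouse that is controlled by the transcription factor SREBP2. They were followed in the aorta of ApoE-/- mice on a Western or a normal diet. The list was given by name: 19 enzymes of sterol synthesis, 5 genes of SREBP and its control, 2 proteins that move or bind sterols, and 2 fatty acid desaturases. Each member was read from the deposited locus that names it, and where several loci did so, from the locus with the highest mean FPKM over the 16 libraries. All 28 were found among 70603 deposited loci, and all 28 were among the 24091 loci that entered the tests.

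SREBP2 is made as a membrane protein of the endoplasmic reticulum, where SCAP binds it. When membrane cholesterol is low, SCAP carries SREBP2 to the Golgi, proteases release its transcription factor part, and that part raises the genes that make cholesterol from acetyl-CoA. When cholesterol is plentiful, INSIG proteins hold SCAP in the endoplasmic reticulum and the same genes go quiet. INSIG1 is itself a target of SREBP, and the oxysterols that accumulate in cholesterol-loaded cells also act through INSIG. In the artery wall of atherosclerotic mice, macrophages and smooth muscle cells take up cholesterol and can become foam cells.

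RNA was sequenced from the aorta of mice labelled ApoE-/- in the design text and "APOE knockdown" in the genotype field. All 4 groups carry this genotype, and no wild-type group was used. Feeding began at an age of 8 weeks. Groups of 4 libraries each came from normal purified diet for 6 weeks (Sham6W, age 14 weeks), Western diet for 6 weeks (AS6W, age 14 weeks), normal diet for 22 weeks (Sham22W, age 30 weeks) and Western diet for 22 weeks (AS22W, age 30 weeks). Nothing in the labels says that the 4 libraries of a group came from separate animals, so p-values measure the spread between these libraries, which may be technical. The library identifiers in the labels have one prefix at 6 weeks and another at 22 weeks, so time on diet, age and that prefix cannot be told apart.

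Library totals ran from 45253433 to 81397840 estimated counts, and the lowest count of any member in any library was 100. The targeted gene could not be read alone, since its locus joins Apoe with Tomm40, and the labels name no wild type to set it against. The smooth muscle markers that define the artery wall summed to 4478 to 13182 CPM (counts scaled to a common library total, with TMM scaling), and the white adipocyte markers to 1742 to 5265 CPM, so adipocyte transcripts were present in every library. In bulk tissue, fewer cells of a type and less RNA per cell cannot be told apart. The Western-diet libraries of 6 weeks stood apart from each other. Replicates 2 and 4 held 2063 and 1332 CPM of the 8 summed sympathetic neuron markers, which include Th, Dbh and Slc6a2, while replicates 1 and 3 held 5.29 and 9.38 CPM with Th at 0. The other 12 libraries held between 9.90 and 299 CPM. This marker list was chosen after the values were seen. For the members, results of the 6-week Western group are given with and without replicates 2 and 4. For the neighbouring genes they are given with all libraries only.

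Promoter sequences are shown for 5 members, because Insig1 was the member that passed the test for diet at 22 weeks, Lss and Idi1 were called beside it by another tool, and Hmgcs1 and Srebf2 hold letters of the sterol element. Pmvk and Acat2 were also called by that tool, and their windows were searched but are not printed. RefSeq windows of build GRCm38.p6 were given for 23 of the 28 members. For each, the 250 bases before the start site nearest the locus were searched on both strands. Capitals mark matches to the sterol element in the forms TCACNCCAC and ATCACNCCA, the E-box CACGTG, the NF-Y box CCAAT and the Sp1 box GGGCGG. The first 2 forms overlap each other by 8 letters where a full element is present. Each sequence is written 5′ to 3′ on the plus strand, which is the strand of all 5 genes, at chr5:28071162-28071411 (Insig1), chr10:76531355-76531604 (Lss), chr13:8885356-8885605 (Idi1), chr13:119690101-119690350 (Hmgcs1) and chr15:82147019-82147268 (Srebf2).
Insig1: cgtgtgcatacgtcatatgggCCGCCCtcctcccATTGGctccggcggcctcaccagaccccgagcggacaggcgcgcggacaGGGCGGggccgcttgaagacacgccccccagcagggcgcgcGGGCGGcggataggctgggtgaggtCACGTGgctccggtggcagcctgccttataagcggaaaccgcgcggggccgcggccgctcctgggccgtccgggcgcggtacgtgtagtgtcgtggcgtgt
Lss: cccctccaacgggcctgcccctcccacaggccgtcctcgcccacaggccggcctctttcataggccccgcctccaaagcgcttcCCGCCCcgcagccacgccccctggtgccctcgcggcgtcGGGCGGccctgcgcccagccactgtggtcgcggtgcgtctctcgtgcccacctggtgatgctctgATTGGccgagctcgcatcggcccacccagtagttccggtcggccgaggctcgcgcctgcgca
Idi1: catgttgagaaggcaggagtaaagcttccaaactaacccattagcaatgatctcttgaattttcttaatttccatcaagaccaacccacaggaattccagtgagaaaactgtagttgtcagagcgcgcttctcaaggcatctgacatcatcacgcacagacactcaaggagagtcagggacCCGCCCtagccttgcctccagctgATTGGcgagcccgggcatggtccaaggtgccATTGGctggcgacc
Hmgcs1: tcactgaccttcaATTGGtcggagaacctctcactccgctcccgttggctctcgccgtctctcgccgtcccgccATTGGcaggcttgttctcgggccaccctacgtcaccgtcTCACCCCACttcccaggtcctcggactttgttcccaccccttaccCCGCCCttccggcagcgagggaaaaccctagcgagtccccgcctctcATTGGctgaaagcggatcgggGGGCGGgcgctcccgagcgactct
Srebf2: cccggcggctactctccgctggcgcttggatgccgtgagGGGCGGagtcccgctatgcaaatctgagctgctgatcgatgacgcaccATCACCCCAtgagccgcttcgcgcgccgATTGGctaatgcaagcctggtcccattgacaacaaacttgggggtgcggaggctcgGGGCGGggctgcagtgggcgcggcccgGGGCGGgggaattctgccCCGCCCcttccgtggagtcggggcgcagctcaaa

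Among the 23 members, Hmgcs1 was the 1 with TCACNCCAC, starting 137 bases before the start site, a motif in 1.05% of all 32851 windows of the table. Srebf2 was the 1 with ATCACNCCA, starting 163 bases before it (0.712% of all windows), so no member held both forms. CACGTG was found in Insig1, Hsd17b7 and Sc5d, against 6.02% of all windows. CCAAT was in 19 of 23 member windows and 33.8% of all windows, and GGGCGG in 18 of 23 and 32.7%. The searched windows of Fads2 and Tm7sf2 lie 12787 and 17093 bases from the 5′ end of the locus that was counted. These are matches of letters, not measured binding.

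Per length, 3 of the 5 genes of SREBP and its control and both enzymes between acetyl-CoA and HMG-CoA had the highest levels. Mean FPKM (fragments scaled by transcript length and depth) over all libraries was 17.3 for Srebf1, 15.9 for Insig1, 14.0 for Hmgcs1, 13.5 for Acat2 and 12.3 for Srebf2. The other 2 control genes, Scap at 6.34 FPKM and Insig2 at 6.18 FPKM, lay below Fads1 (10.1 FPKM), Nsdhl, Fads2 (7.49 FPKM) and Pmvk (7.08 FPKM). The enzymes between lanosterol and cholesterol lay lower, from 1.54 FPKM for Hsd17b7 to 7.55 FPKM for Nsdhl. Stard4 stood at 2.09 FPKM and Mvd at 2.40 FPKM. Of the 28 loci, 23 carry the member's name alone. The locus of Acat2 also names Acat3, that of Fdps also names Rusc1 and that of Tm7sf2 also names Vps51 and Zfpl1, so the values of these 3 enzymes are of joined loci. The loci of Srebf1 and Fads1 also name microRNA genes.

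**Figure D1:**
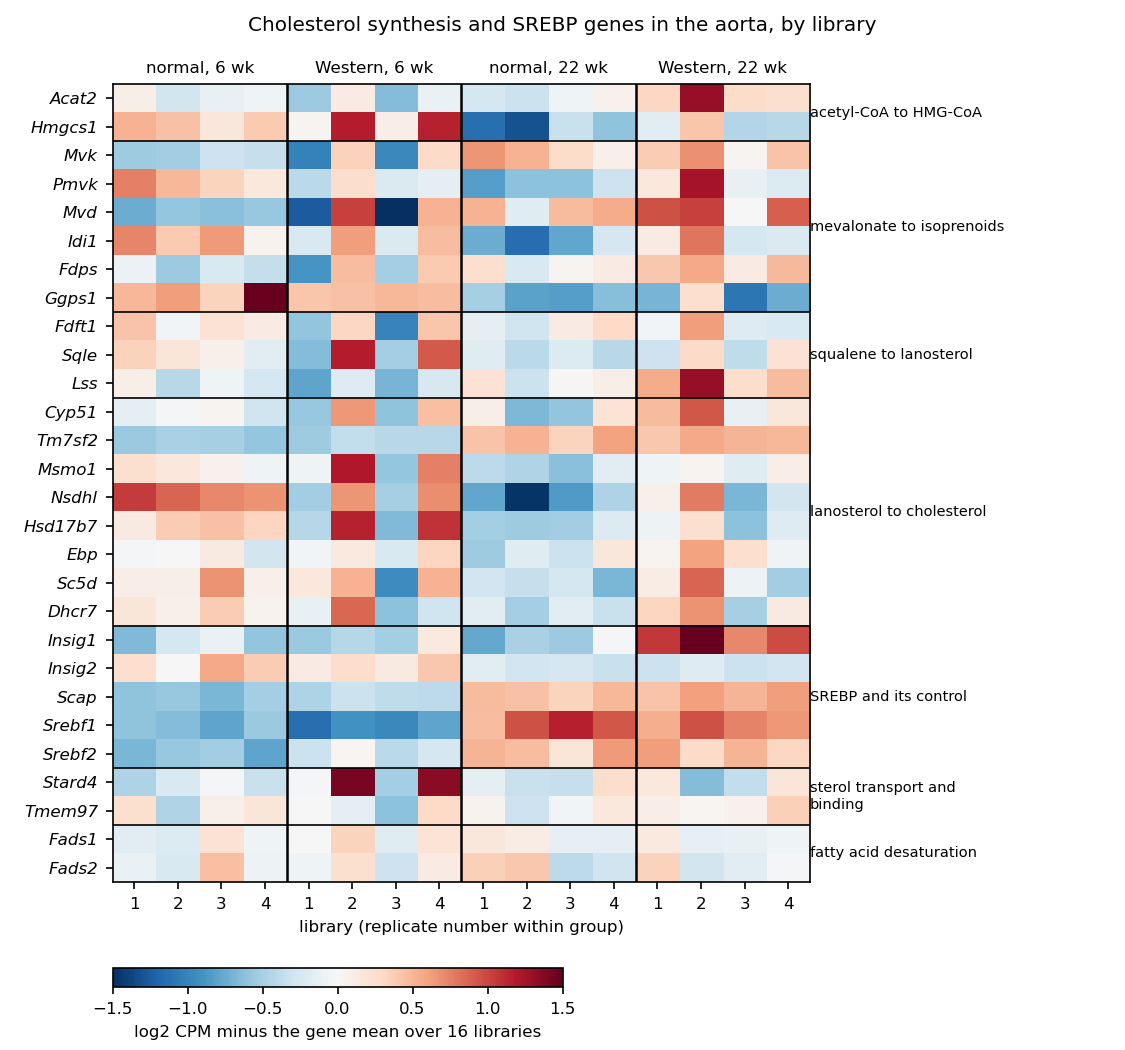
Level of the 28 genes in each of the 16 libraries, as log2 CPM minus the mean of the gene over all libraries (colour, cut at -1.5 and 1.5), with genes in pathway order (rows) and libraries by group (columns). Western-diet replicates 2 and 4 of 6 weeks and replicate 2 of 22 weeks are red across most synthesis enzymes, and Scap and Srebf1 are blue at 6 and red at 22 weeks on both diets.

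After 22 weeks, Western-fed aortas held more Insig1 transcript than aortas on normal diet. Insig1 encodes the protein that retains SCAP and SREBP2 in the endoplasmic reticulum. It stood at 73.6, 89.2, 85.8 and 124 CPM in the 4 normal-diet libraries and at 261, 506, 207 and 246 CPM in the 4 Western-diet libraries. All Western-diet values lay above all normal-diet values. The log2 fold change was 1.71 ± 0.27 (SE), with an adjusted p of 0.0207 by the edgeR quasi-likelihood test (Benjamini-Hochberg over all loci tested). Insig1 was the 1 of 28 members that passed, where 0.174% of all loci were called higher. The call was lost without normal-diet replicate 2 (log2 fold change 1.70, adjusted p = 0.0755), without the 7 libraries over 100 CPM of sympathetic neuron markers (2.03, adjusted p = 0.0797) and when the 8 libraries of this comparison were fitted alone (1.72, adjusted p = 0.218), where edgeR called 0 of all loci and 2841 had an unadjusted p under 0.05. Leaving out those 7 libraries kept only replicates 2 and 3 of each diet at 22 weeks.

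No synthesis enzyme passed the edgeR test at 22 weeks, but their fold changes were positive in all 19 cases. The median was 0.43 on the log2 scale, against -0.03 over all loci, of which 46.1% were positive. Over all 28 members the median was 0.33, with 22 positive. Between acetyl-CoA and HMG-CoA, Acat2, the cytosolic thiolase that joins the first acetyl-CoA units, stood at 70.7, 67.7, 81 and 88.8 CPM in normal-diet and 105, 210, 103 and 101 CPM in Western-diet libraries, a log2 fold change of 0.75 ± 0.23 (adjusted p = 0.142). Its groups did not overlap, and 1 Western-diet library, replicate 2, was far above the other 3. Hmgcs1, the HMG-CoA synthase, stood at 48.3, 43.0, 84.2 and 69.6 CPM in normal-diet and 94.4, 142, 78.0 and 79.5 CPM in Western-diet libraries (0.68 ± 0.29, adjusted p = 0.286), and its groups overlapped.

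From mevalonate to the isoprenoids, the 6 genes had a median log2 fold change of 0.38. Pmvk, the phosphomevalonate kinase, stood at 7.95, 9.20, 9.20 and 11.3 CPM in normal-diet and 15.7, 33.2, 13.0 and 12.2 CPM in Western-diet libraries (0.98 ± 0.27, adjusted p = 0.125). Idi1, which converts isopentenyl diphosphate into its reactive isomer, stood at 10.2, 7.80, 10.0 and 14.4 CPM in normal-diet and 18.8, 29.9, 14.4 and 14.8 CPM in Western-diet libraries (0.87 ± 0.27, adjusted p = 0.154). The groups of Pmvk lay apart, while those of Idi1 met at 14.4 CPM. Mvk, the mevalonate kinase, stood at 20.8 ± 3.68 CPM in normal-diet and 20.9 ± 3.78 CPM in Western-diet libraries (mean ± SD, n = 4 each), a log2 fold change of 0.00 ± 0.27 (SE). Mvd, the decarboxylase, Fdps, which makes farnesyl diphosphate, and Ggps1, which makes the geranylgeranyl diphosphate used to anchor proteins in membranes, had fold changes of 0.40 ± 0.47, 0.35 ± 0.24 and 0.21 ± 0.30 on the log2 scale, all with overlapping groups.

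Of the 3 enzymes from squalene to lanosterol, Lss stood out. Lss, the cyclase that folds squalene epoxide into lanosterol, stood at 33.7, 23.1, 29.4 and 30.7 CPM in normal-diet and 42.7, 71.5, 34.8 and 40.2 CPM in Western-diet libraries (log2 fold change 0.69 ± 0.21, adjusted p = 0.149), with no overlap. Sqle, the squalene epoxidase that controls flux in this stretch, had a fold change of 0.28 ± 0.33, and Fdft1, the squalene synthase that commits farnesyl units to sterols, one of 0.07 ± 0.28. The 8 genes from lanosterol to cholesterol had a median of 0.47. Nsdhl, a dehydrogenase of sterol demethylation, stood at 13.5, 8.37, 12.9 and 16.8 CPM in normal-diet and 24.4, 39.9, 14.3 and 19.2 CPM in Western-diet libraries (0.92 ± 0.33, adjusted p = 0.216), with overlap in 1 library. The others ran from 0.02 ± 0.08 for Tm7sf2, a sterol reductase, to 0.61 ± 0.30 for Cyp51, the lanosterol demethylase, with Dhcr7, the reductase that yields cholesterol, at 0.50 ± 0.28.

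None of the other 4 genes of SREBP and its control passed at 22 weeks. Srebf2 itself stood at 161, 156, 129 and 176 CPM in normal-diet and 174, 138, 161 and 141 CPM in Western-diet libraries (log2 fold change -0.02 ± 0.12). Insig2, the second retention protein, stood at -0.02 ± 0.11, Scap at 0.11 ± 0.07 and Srebf1, whose SREBP1 products act mainly on fatty acid genes, at -0.17 ± 0.13. In each of these 4 genes the groups overlapped. Stard4, a cytosolic sterol carrier, and Tmem97, a sterol-binding membrane protein, stood at -0.01 ± 0.35 and 0.17 ± 0.20, and the desaturases Fads1 and Fads2, which make polyunsaturated fatty acids, at -0.05 ± 0.13 and -0.08 ± 0.21.

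Acat2, Pmvk, Lss and Insig1 were the 4 of 28 members whose Western-diet libraries all lay above the normal-diet libraries at 22 weeks, against 4.52% of all loci, and 0 lay all below, against 2.99%. DESeq2 called 5 members higher, namely Insig1, Pmvk (adjusted p = 0.0162), Acat2 (0.0361), Idi1 (0.0380) and Lss (0.0410), where it called 2.56% of all loci higher. Western-diet replicate 2 was the highest of its group in 21 of 28 members, against 31.1% of all loci. Without it Insig1 still passed in edgeR (1.38 ± 0.20, adjusted p = 0.0328), where 14 of 24091 loci were called higher. In that fit 16 of 19 enzymes were positive, against 50.1% of all loci, and their median was 0.33. Of the 19, 4 had an unadjusted p under 0.05, against 7 with all libraries, and the lowest adjusted p was 0.283. Western-diet replicate 2 also held the most Plin1 (1019 CPM, against 571 to 688 CPM in the other 3), Lipe and Cidec, markers of white fat. The same held for Ucp1 (2091 CPM, against 823 to 1357 CPM), Cidea and Cox8b, markers of brown fat. All 8 white adipocyte markers summed to 1742 to 4097 CPM in normal-diet and to 2513.5, 5265, 3972 and 2859 CPM in Western-diet libraries. The groups overlapped, with 7 of 8 fold changes positive, 0 past the test and 3 at an unadjusted p under 0.05. Over all 6 brown adipocyte markers, none at 0, the sum was 399 to 1159 CPM in normal-diet and 1329 to 3103.5 CPM in Western-diet libraries, with all 6 fold changes positive and Cox8b past the test (1.65 ± 0.29, adjusted p = 0.0367). The 6 macrophage markers, none at 0, summed to 655 to 1222 CPM in normal-diet and 1365 to 1724 CPM in Western-diet libraries, with 0 of 6 past the test (1 at an unadjusted p under 0.05), and the 6 smooth muscle markers to 5838 to 11531 CPM and 4478 to 7582 CPM, with 0 of 6 past it (3 at an unadjusted p under 0.05). Skeletal muscle markers had the highest median difference of the marker lists, 2.91 on the log2 scale, with 6 of 6 positive, 0 past the test and 6 at an unadjusted p under 0.05. Their sums were 8.03 to 44.8 CPM in normal-diet and 31.0 to 264 CPM in Western-diet libraries, with Pvalb at 0 in a normal-diet library. The 4 tested thymocyte markers had a median of 2.54, with 0 past the test and 2 at an unadjusted p under 0.05. The part of these tissues in the Insig1 difference was not tested.

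**Figure D2:**
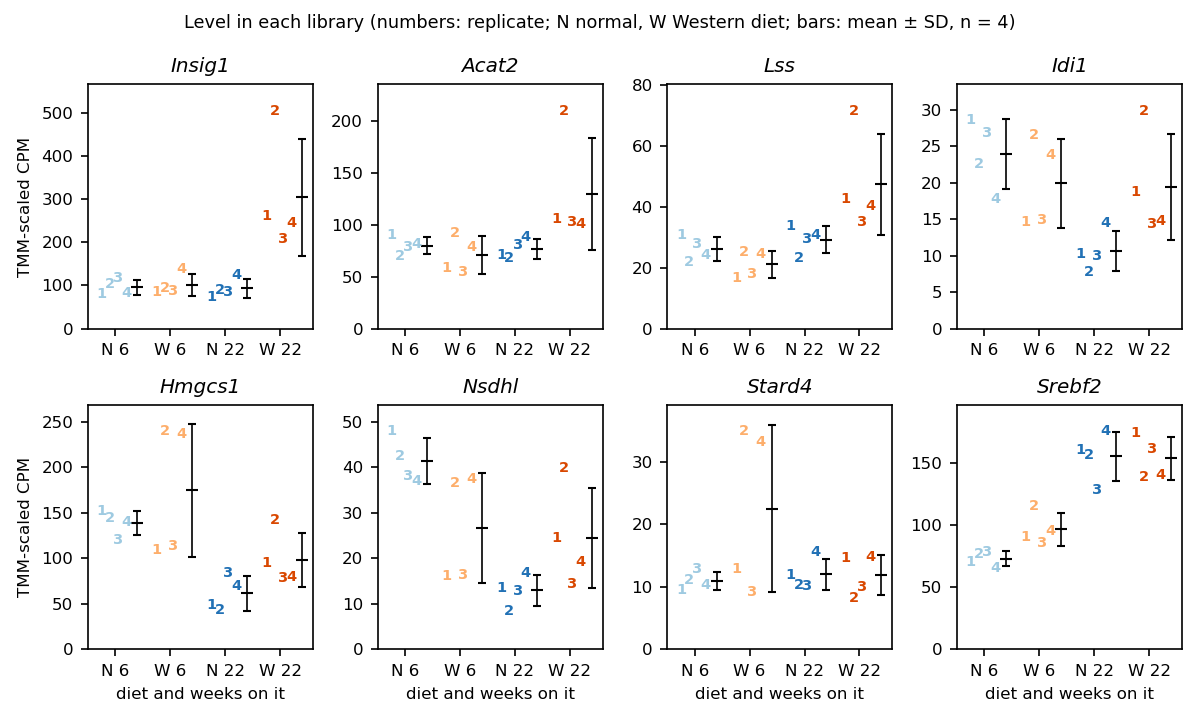
CPM of 8 genes in each library, by diet (N normal, W Western) and weeks on it, with the replicate number as the plotting mark and mean ± SD beside it (n = 4). Insig1 lies at 207 to 506 CPM in the Western-diet libraries of 22 weeks and at 73.6 to 139 CPM in the other 12, and at 6 weeks Western-diet replicates 2 and 4 lie above 1 and 3 for all genes shown.

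After 6 weeks, no member passed the edgeR test for diet, and none passed with DESeq2. Of all loci, DESeq2 called 0.984% higher and 0.917% lower. Of all loci, 0.282% passed edgeR, and 4 members, Scap, Srebf1, Srebf2 and Stard4, had an unadjusted p under 0.05, as did 10.7% of all loci. The median log2 fold change was 0.09 over the members, with 15 of 28 positive, and 0.00 over all loci. Srebf2 stood at 70.2, 76.6, 78.5 and 65.5 CPM in normal-diet and 90.3, 115, 85.3 and 95.2 CPM in Western-diet libraries (0.41 ± 0.12, adjusted p = 0.208). Scap stood at 44.9 to 50.4 CPM in normal-diet and 52.4 to 57.6 CPM in Western-diet libraries (0.21 ± 0.07, adjusted p = 0.312). Both genes lay wholly above the normal-diet range, 2 of 28 members where 3.19% of all loci did so. Srebf1 was the 1 member wholly below it (157 to 184 against 124 to 156 CPM; -0.30 ± 0.13, adjusted p = 0.444), where 4.20% of all loci were. Insig1 was near equal at this time, with 79.2, 104, 117 and 82.8 CPM in normal-diet and 85.4, 93.2, 87.8 and 139 CPM in Western-diet libraries (0.08 ± 0.26).

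The enzymes did not form 1 group in the Western-diet aortas of 6 weeks. Hmgcs1 stood at 109, 240, 114 and 237 CPM in replicates 1 to 4, Sqle at 13.3, 46.9, 14.6 and 39.2 CPM and Hsd17b7, a sterol ketone reductase, at 6.62, 19.7, 5.60 and 18.8 CPM. In each, replicates 2 and 4 were high and replicates 1 and 3 low, with no value between. Stard4 showed the same order with 12.9, 35.0, 9.16 and 33.2 CPM, and Mvd with 2.24, 10.8, 1.30 and 7.66 CPM. The normal-diet libraries were closer together, from 120 to 152 CPM for Hmgcs1 and 9.46 to 12.9 CPM for Stard4. Replicates 2 and 4 both lay above replicates 1 and 3 in 24 of 28 members, against 21.6% of all loci, and the opposite order held in 0 of 28, against 22.8% of all loci. The 4 members outside this order were Ggps1, Dhcr7, Scap and Tmem97.

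**Figure D3:**
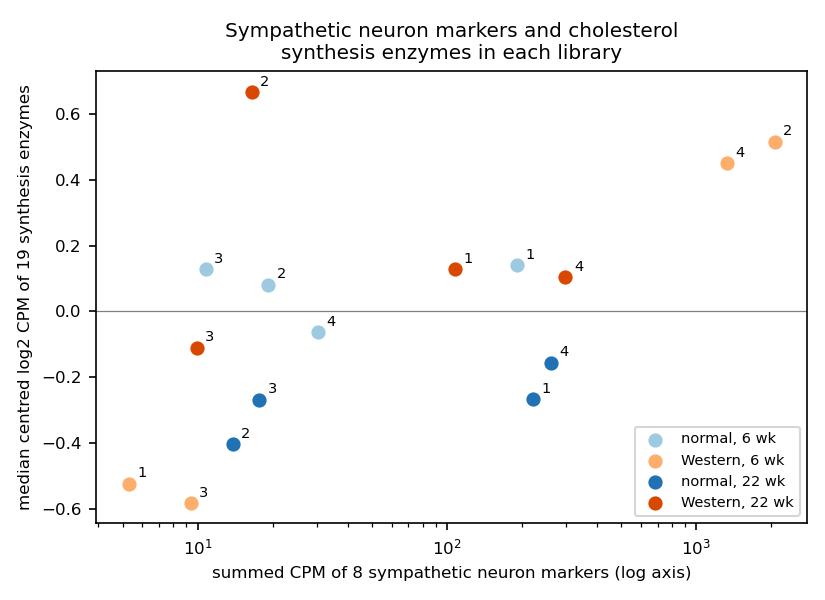
Summed CPM of 8 sympathetic neuron markers (x, log axis) and median centred log2 CPM of the 19 synthesis enzymes (y) in each library, with the replicate number beside each point. Western-diet replicates 2 and 4 of 6 weeks lie at 2063 and 1332 CPM with enzyme medians of 0.52 and 0.45, and replicates 1 and 3 at 5.29 and 9.38 CPM with medians of -0.52 and -0.58, while replicate 2 of 22 weeks on Western diet has the highest median, 0.67, at 16.5 CPM.

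Replicates 2 and 4 were also those with the sympathetic neuron markers, and they were higher than replicates 1 and 3 in 3 other marker lists. Brown adipocyte markers summed to 1639, 2363, 1969 and 3201 CPM in replicates 1 to 4, white adipocyte markers to 2274, 2464, 2200 and 3250 CPM, and hepatocyte markers to 97.0, 156, 10.2 and 387 CPM. Macrophage markers had the opposite order, at 772.6, 579.5, 1081.7 and 771.7 CPM. The sums for smooth muscle, endothelium, skeletal muscle, thymocytes, dividing cells and Schwann cells followed neither order. The median of the 19 enzymes, each centred over the 16 libraries, was 0.52 and 0.45 in replicates 2 and 4 and -0.52 and -0.58 in replicates 1 and 3 on the log2 scale, and between -0.06 and 0.14 in the 4 normal-diet libraries of 6 weeks. Dbh, which makes noradrenaline, stood at 0.588, 415, 0.376 and 280 CPM in the 4 Western-diet libraries. All 8 markers were above 0 in replicates 2 and 4. At 22 weeks the marker sums ran from 13.8 to 261 CPM in normal-diet and from 9.90 to 299 CPM in Western-diet libraries, and the library with the highest enzyme median, Western-diet replicate 2, had a sum of 16.5 CPM. The part of these tissues in the enzyme levels was not tested.

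Without replicates 2 and 4, the Western-diet group of 6 weeks was below the normal-diet group in most members, and still none passed in edgeR. The median log2 fold change was -0.44, with 4 of 28 members positive and 12 at an unadjusted p under 0.05, against 11.0% of all loci. Since 24 of 28 members were high in the libraries left out, a lower level in the rest follows in part from that choice. Over the 19 enzymes it was -0.55, with 1 positive. Nsdhl stood at 47.9, 42.6, 38.0 and 37.0 CPM on normal diet and at 16.1 and 16.3 CPM in replicates 1 and 3 (-1.35 ± 0.34, adjusted p = 0.145). Fdft1 (-0.98 ± 0.24, adjusted p = 0.143) and Hsd17b7 (-0.86 ± 0.21, adjusted p = 0.128) also lay lower in both libraries than in any of the normal-diet libraries. The fit leaves 2 Western-diet libraries, and leaving out all 7 libraries whose marker sum exceeded 100 CPM gave a median of -0.41 with 3 of 28 positive. Both choices were made after the values were seen.

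**Figure D4:**
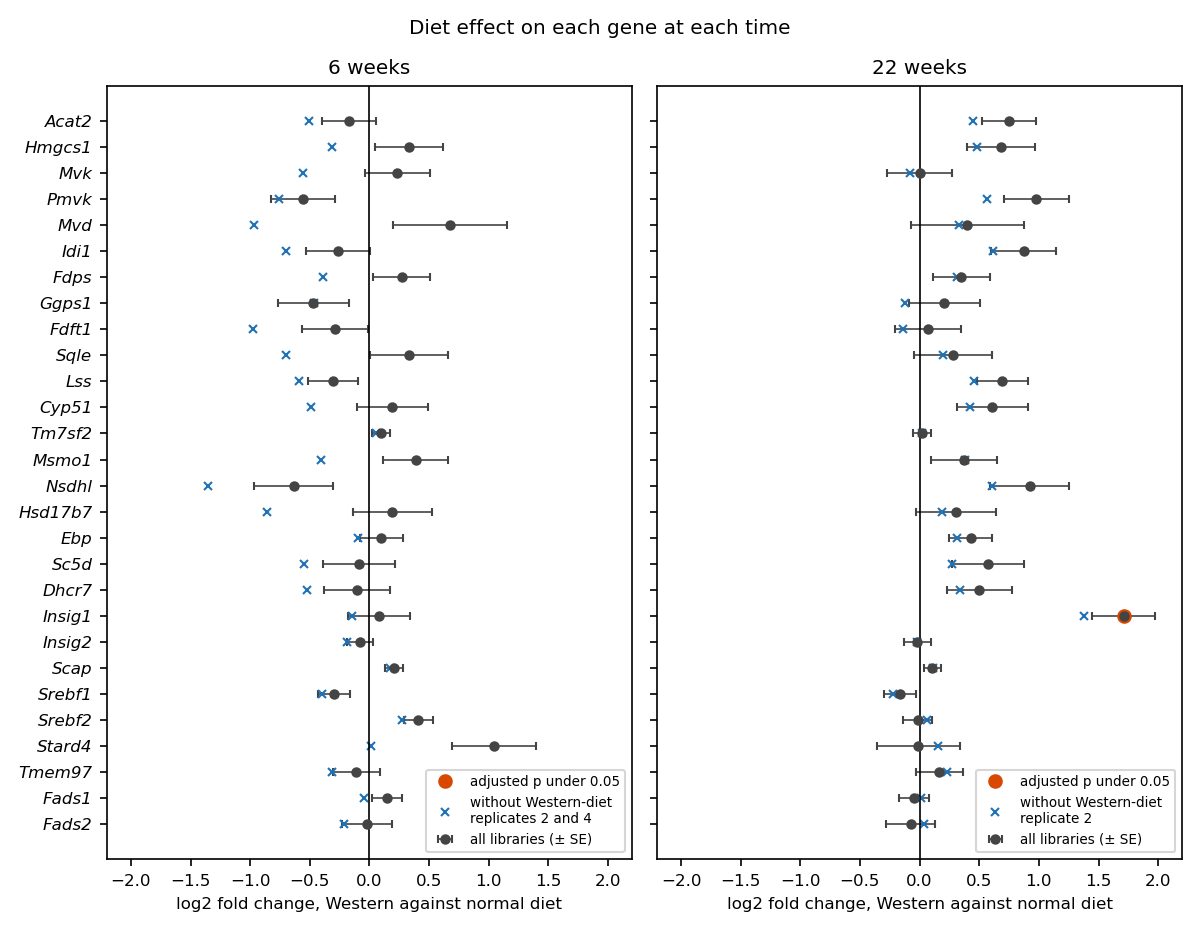
Log2 fold change of Western against normal diet for each gene (points, ± SE; x axis) at 6 weeks (left) and 22 weeks (right), with blue crosses for the fit without the Western-diet replicates named in each legend. At 22 weeks all 19 synthesis enzymes lie at or right of 0 and Insig1 (orange) passes, and at 6 weeks most crosses lie left of 0.

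The test of the difference asks whether the diet effect at 22 weeks exceeds that at 6 weeks. No member passed in edgeR, where 0.183% of all loci did, and 8 members had an unadjusted p under 0.05, as did 12.0% of all loci. The difference was 1.63 ± 0.37 for Insig1 (adjusted p = 0.0974), 1.56 ± 0.47 for Nsdhl (0.196), 1.53 ± 0.38 for Pmvk (0.124), 1.13 ± 0.38 for Idi1 (0.236), 1.0 ± 0.30 for Lss (0.196) and 0.93 ± 0.32 for Acat2 (0.247), on the log2 scale with SE. It was negative for the remaining 2, at -0.42 ± 0.17 for Srebf2 (0.327) and -1.05 ± 0.49 for Stard4 (0.417). DESeq2 called 3 members higher, Insig1 (adjusted p = 0.00242), Pmvk (0.00918) and Nsdhl (0.0396), against 1.67% of all loci. Without Western-diet replicates 2 and 4 of 6 weeks, Nsdhl passed in edgeR (2.28 ± 0.43, adjusted p = 0.0438), against 0.577% of all loci called higher, in a fit without libraries in which it was high. The member median then was 0.90, with 24 of 28 positive, against -0.04 over all loci in that fit, of which 47.0% were positive. With all libraries the member median was 0.20, with 18 positive, against -0.05 over all loci. Since 24 of 28 members were high in the libraries left out, the larger difference follows in part from that choice. On leaving out 1 library, the member median ran from 0.10 without Western-diet replicate 2 of 22 weeks to 0.36 and 0.40 without Western-diet replicates 2 and 4 of 6 weeks, and it was 0.13 without replicate 1 or 3 of 6 weeks on that diet.

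Between 6 and 22 weeks on normal diet, members changed in both directions, among the control genes as among the enzymes. Scap (1.03 ± 0.08, adjusted p = 1.8e-07), Srebf2 (1.09 ± 0.12, adjusted p = 4.65e-06) and Srebf1 (1.55 ± 0.14, adjusted p = 7.11e-07) rose on the log2 scale. Srebf2 went from 65.5 to 78.5 CPM at 6 weeks to 129 to 176 CPM at 22 weeks, and Srebf1 from 157 to 184 CPM to 375 to 608 CPM. Tm7sf2 (1.01 ± 0.08) and Mvk (0.83 ± 0.27, adjusted p = 0.022) rose as well. In the other direction, Nsdhl fell by 1.68 ± 0.34, Ggps1 by 1.61 ± 0.31, Hmgcs1 by 1.18 ± 0.29, Idi1 by 1.17 ± 0.27, Pmvk by 1.03 ± 0.27 and Insig2 by 0.57 ± 0.11 on the log2 scale (adjusted p between 0.000566 and 0.00611). Hmgcs1 stood at 120 to 152 CPM at 6 weeks and 43.0 to 84.2 CPM at 22 weeks, with no overlap.

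In all, 5 of 28 members were called higher at 22 weeks on normal diet, against 24.0% of all loci, and 6 lower, against 22.6%. Both shares are near those of all loci. Marker lists moved with time on normal diet as well. Lower at 22 weeks were 5 of 6 brown adipocyte, 4 of 6 hepatocyte, 4 of 6 skeletal muscle, 2 of 6 smooth muscle and 1 of 6 macrophage markers. Higher were 3 of 6 endothelial, 3 of 6 macrophage, 1 of 8 white adipocyte and 1 of 6 Schwann cell markers. The part of these tissues in the differences was not tested. Insig1 was level (-0.04 ± 0.26). The call of Mvk was lost without normal-diet replicate 1 or 2 of 6 weeks or replicate 1 of 22 weeks (adjusted p from 0.0504 to 0.0604). On the length-scaled FPKM with limma, where the median of all loci was -0.16 in place of 0.02, the members split into 4 higher and 8 lower. Of all loci, that fit called 17.6% higher and 32.9% lower.

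On Western diet, 7 members were higher at 22 weeks, against 21.9% of all loci, and 4 lower, against 21.9%. Srebf1 (1.68 ± 0.14, adjusted p = 4.55e-07), Scap (0.93 ± 0.08), Srebf2 (0.67 ± 0.12) and Tm7sf2 (0.93 ± 0.08) rose here too, in a contrast that the library prefix also separates. Insig1 rose by 1.59 ± 0.26 (adjusted p = 0.000198), Lss by 1.16 ± 0.21 (adjusted p = 0.000477) and Acat2 by 0.87 ± 0.23 (adjusted p = 0.00593), each with no overlap between the times. Hmgcs1 (-0.83 ± 0.29, adjusted p = 0.0285), Ggps1 (-0.93 ± 0.30, adjusted p = 0.0208), Insig2 (-0.51 ± 0.11, adjusted p = 0.00164) and Stard4 (-0.92 ± 0.35, adjusted p = 0.0445) fell. Among the marker lists, 5 of 8 white adipocyte, 4 of 6 skeletal muscle, 3 of 6 endothelial and 3 of 6 macrophage markers were higher at 22 weeks. Lower were 5 of 6 hepatocyte, 2 of 6 brown adipocyte, 2 of 6 smooth muscle, 1 of 6 macrophage and 1 of 8 sympathetic neuron markers. The part of these tissues was not tested.

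Of the 4 lower calls on Western diet, 3 were lost on leaving out 1 library. Insig2 passed in each such fit, and was lost without the 7 libraries over 100 CPM of sympathetic neuron markers (-0.38, adjusted p = 0.149). Hmgcs1 was lost without replicate 2 or 4 of 6 weeks or replicate 1, 3 or 4 of 22 weeks (adjusted p from 0.0602 to 0.097), Ggps1 without replicate 1, 3 or 4 of 22 weeks (0.0533 to 0.0591), and Stard4 without replicate 2 or 4 of 6 weeks or 2, 3 or 4 of 22 weeks (0.0501 to 0.168). Without replicates 2 and 4 of 6 weeks together, 13 members were higher, against 17.8% of all loci, and 1, Insig2, lower, against 17.0%. Mvd (2.36 ± 0.33), Mvk (1.38 ± 0.19), Fdps (1.09 ± 0.17), Cyp51 (0.99 ± 0.29), Fdft1 (0.86 ± 0.24) and Sqle (0.56 ± 0.20) were then past the threshold beside the 7 of all libraries. These 6 were high in the libraries left out, which were picked after the values were seen, so their higher values at 22 weeks follow in part from that choice and are given as a description. In the same fit Stard4 stood at 0.11 ± 0.26 and Hmgcs1 at -0.19 ± 0.26.

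**Figure D5:**
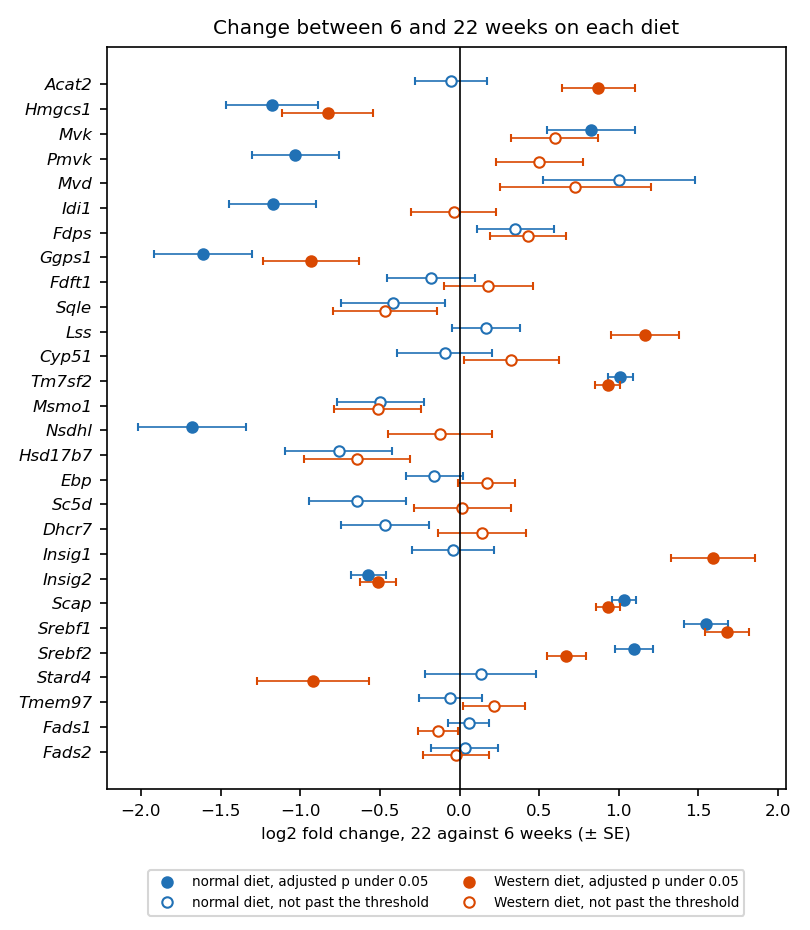
Log2 fold change of 22 against 6 weeks for each gene (± SE) on normal diet (blue) and Western diet (orange), filled where the adjusted p is under 0.05. Scap, Srebf1, Srebf2 and Tm7sf2 are filled and right of 0 on both diets, Ggps1, Hmgcs1 and Insig2 are filled and left of 0 on both, and Insig1, Lss and Acat2 are filled and right of 0 on Western diet alone, which is no test of a difference between the diets.

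Genes of 4 neighbouring steps were counted beside the members. Of 8 genes of SREBP cleavage and sterol-regulated degradation, 0 passed for diet at either time (2 and 1 with an unadjusted p under 0.05). Over time, Mbtps1, the Golgi protease that makes the first cut in SREBP, rose on normal (0.33 ± 0.08) and Western diet (0.47 ± 0.08). In all, 3 of these 8 were higher and 1 lower on each diet. Of all loci, 24.0% were called higher and 22.6% lower over time on normal diet, and 21.9% each way on Western diet. Of 10 genes that use isoprenoids for protein prenylation, dolichol or ubiquinone, 0 passed for diet at either time (0 and 3 with an unadjusted p under 0.05), while 2 were higher and 4 lower over time on normal diet and 4 higher and 3 lower on Western diet. Pdss1, which makes the ubiquinone tail, fell by 1.08 ± 0.16 and 0.79 ± 0.16.

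Of 10 genes of acetyl-CoA and fatty acid synthesis, 3 were lower and 0 higher on Western diet at 6 weeks, with a median of -1.08. Of all loci, 0.220% were called lower at that time. At 22 weeks 0 of the 10 passed, with a median of 0.29 and 3 at an unadjusted p under 0.05. Acly, the citrate lyase that makes the substrate of Acat2, was among the 3 lower at 6 weeks (-2.04 ± 0.32, adjusted p = 0.0119), beside Me1, the malic enzyme, and Thrsp, a regulator of lipogenesis. Acss2, which makes acetyl-CoA from acetate, stood at 319, 247, 253 and 208 CPM in normal-diet and 111, 122, 106 and 167 CPM in Western-diet libraries at 6 weeks. The values at 22 weeks were 204, 170, 188 and 218 CPM against 374, 676, 276 and 306 CPM. It lay below the normal-diet range at 6 weeks (adjusted p = 0.122) and above it at 22 weeks (adjusted p = 0.0804), and the difference between the diet effects passed (2.08 ± 0.34, adjusted p = 0.0381). White adipocyte markers had a median diet effect of -0.47 at 6 weeks, with 6 of 8 negative, 0 past the test and 5 at an unadjusted p under 0.05. Brown adipocyte markers had a median of -0.10, with 3 of 6 negative. For the difference of the diet effects the medians were 0.73 (white) and 1.58 (brown), with 0 past the test. The part of fat tissue in the values of these synthesis genes was not tested. Over time, 1 of the 10 synthesis genes was higher and 5 lower on normal diet, and 6 higher and 0 lower on Western diet. The shares of all loci were 24.0% higher and 22.6% lower on normal diet, and 21.9% each way on Western diet. Of 9 tested genes of sterol storage and transport inside the cell, Lipa, the lysosomal acid lipase that frees cholesterol from its esters, was the 1 that passed for diet at 22 weeks (69.6, 58.1, 74.5 and 56.5 against 121, 135, 114 and 104 CPM; 0.87 ± 0.11, adjusted p = 0.0179), where 0.174% of all loci were called higher. At 6 weeks 0 passed (5 with an unadjusted p under 0.05). Over time 2 were higher and 2 lower on normal and 6 higher and 1 lower on Western diet, against the same shares of all loci.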

How the data were processed

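RNA sequencing of 16 aorta libraries in 4 groups of 4 was deposited as 1 table of loci. Per the file headers, each library has 1 column of FPKM and 1 of estimated counts. Trimming with cutadapt 1.9, quality checks with FastQC and the build GRCm38 are stated per the submitters' processing notes. Names of the aligner, counter and annotation were not given in the sources used here, nor was the strand setting. With strand unknown, overlapping or antisense genes cannot be told apart. The deposited estimated counts are whole numbers whose low values pile up in steps of about 4 (35277 values of 4, 14716 of 3 and 9394 of 5), so a deposited count need not be 1 fragment. The deposited FPKM is 1e-04 where the count is 0. One sample label points to the column of another replicate, so columns were matched by title.

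Loci without a gene name (3714 of 70603, 0.606% of counts) were left out. Loci that reached an FPKM of 1 in 4 or more libraries, 24091 with 98.05% of the counts, were tested with edgeR 4.0.16 (quasi-likelihood, scaling by trimmed mean of M-values or TMM, R 4.3.3) in a model of 4 group means over all 16 libraries, two-sided, with Benjamini-Hochberg adjustment over all loci and a threshold of 0.05. SE is the fold change divided by the root of F. Levels are TMM-scaled CPM between groups and FPKM between genes. DESeq2 1.42.0 on the counts, limma 3.58.1 on log2(FPKM + 0.5), other scaling factors and filters, the replicate number as a block, and leaving out libraries were the alternatives. The test was checked on simulated counts.

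All 28 members are named. Of the neighbouring lists, genes that passed are named, at most 4 for a list and comparison. One gene of these lists is not reported here by name. The members and lists were chosen with earlier results of these data known, and the sympathetic neuron and Schwann cell markers after the values were seen, so counts over a list are descriptions and no list was tested as a set. The replicate numbers did not pair the libraries. No pair of replicates was identical.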

Additional observations from a re-analysis of the deposited data

Results flagged for a closer look

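Of 112 groups of 4 values (28 genes in 4 groups), 7 held a library far from the other 3 by Dixon's test, and chance flags about 1 in 20 groups. In the Western-diet group of 22 weeks, replicate 2 was high in Acat2, at 210 CPM against 105 CPM in the next library, and in Pmvk, at 33.2 against 15.7 CPM. In the normal-diet group of 22 weeks, replicate 2, the library with the lowest total, was low in Mvd, at 4.72 against 7.39 CPM, and replicate 4 was high in Hsd17b7, at 7.69 against 6.25 CPM. In the normal-diet group of 6 weeks, replicate 4 was high in Ggps1, at 43.0 against 19.7 CPM, and replicate 3 in Sc5d, the sterol desaturase, at 46.1 against 30.9 CPM. In the Western-diet group of 6 weeks, replicate 4 was high in Insig1, at 139 against 93.2 CPM.

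Among the neighbouring genes, 3 had a diet effect that differed between the times in edgeR's interaction test. The effect at 22 weeks exceeded that at 6 weeks by 2.08 on the log2 scale for Acss2 (adjusted p = 0.0381), by 2.01 for Thrsp, a regulator of lipogenesis (adjusted p = 0.0381), and by 1.10 for Lipa (adjusted p = 0.0170). Thrsp stood at -1.49 ± 0.25 at 6 weeks and 0.51 ± 0.25 at 22 weeks (SE). The part of fat tissue in these differences was not tested.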

How the results depend on the processing

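Values here are median log2 fold changes over the genes of a step unless they are counts of members. Every fit that was listed was run. Under other scaling factors (relative log expression, upper quartile) and with counts summed over all loci of a member, counts of members called kept within 1.5 times and medians within the spread between replicates. The cause of the shifts below was not tested.

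Without Western-diet replicates 2 and 4 of 6 weeks, the diet effect at 6 weeks was -0.44 over all members, -0.41 from acetyl-CoA to HMG-CoA, -0.63 from mevalonate to isoprenoids, -0.51 from lanosterol to cholesterol, -0.15 for SREBP and its control and -0.15 for sterol transport. The difference of the diet effects was 0.90 over all members and 1.14, 1.07, 1.06 and 1.07 along the 4 stretches of synthesis, 0.18 for SREBP and its control and 0.25 for transport. For it 1 member was called higher, against 0.577% of all loci. On Western diet, 22 against 6 weeks gave 13 members higher, against 17.8% of all loci, and 1 lower, against 17.0%. Medians of that contrast were 0.51 from acetyl-CoA to HMG-CoA, 0.86 from squalene to lanosterol and 0.26 for transport. There, Sqle turned from -0.47 to 0.56 and Stard4 from -0.92 to 0.11. Since 24 of 28 members were high in the libraries left out, these shifts follow in part from that choice.

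Without the 7 libraries over 100 CPM of sympathetic neuron markers, the diet effect at 6 weeks was -0.41 over all members and -0.36, -0.60, -0.51, -0.21 and -0.15 in the same steps. The difference of the diet effects was 0.99 over all members, 1.29, 1.28, 1.24 and 1.19 along synthesis, 0.19 for SREBP and its control and 0.19 for transport. At 22 weeks, with only replicates 2 and 3 of each diet left, 0 members passed for diet in edgeR (11 at an unadjusted p under 0.05, against 14.4% of all loci; Insig1 2.03, adjusted p = 0.0797). On Western diet, 22 against 6 weeks gave 12 members higher, against 13.4% of all loci, and 0 lower, against 12.0%, with 0.74 over all members and 0.72, 1.03, 1.05 and 0.65 along synthesis, and on normal diet -0.21 over all members.

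With an FPKM filter of 5, which kept 17 members, the diet effect at 22 weeks was 0.039 over these 17. It was 0.80 over the 3 genes kept from mevalonate to isoprenoids, so both medians are over fewer genes. For those 3 genes the difference of the diet effects was 1.05 and the change with time on normal diet -1.08. On Western diet 2 members were lower over time, against 31.4% of all loci in that fit, with a median of 0.80 for SREBP and its control. Fits of only the 8 libraries of a comparison gave 0 members for diet at 22 weeks, where edgeR called 0 of all loci. They gave 2 members lower with time on Western diet, against 20.1% of all loci, and 11 lower on normal diet, against 22.7%. DESeq2 called 5 members higher for diet at 22 weeks, against 2.56% of all loci, and 3 for the difference, against 1.67%.

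With limma on log2(FPKM + 0.5), the median of all loci over time moved to -0.21 on Western and -0.16 on normal diet, and the loci called split into 3669 higher and 8056 lower and into 4252 and 7914, against 5274 and 5287 and 5792 and 5455 in edgeR. Medians over time with pseudocounts of 0.5, 0.1 and 1 were 0.64, 0.68 and 0.59 for SREBP and its control on Western diet and 0.75, 0.81 and 0.70 on normal diet, and -0.27, -0.30 and -0.24 over all members on normal diet. With 0.5 and 0.1 they were -0.30 and -0.32 for desaturation on Western diet and -0.51 and -0.54 from mevalonate to isoprenoids on normal diet. With 0.1 on normal diet they were -0.39 and -0.66 for the later stretches and -0.16 for transport.

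Leaving out 1 library at a time gave 0 to 1 members for diet at 22 weeks, with 0 without normal-diet replicate 2. Over time it gave 7 to 10 higher and 1 to 6 lower on Western diet and 4 to 5 higher and 6 lower on normal diet. With all libraries, 21.9% of all loci were called each way on Western diet, and 24.0% higher and 22.6% lower on normal diet. Medians over all members ran from -0.07 to 0.15 for diet at 6 weeks and 0.25 to 0.43 at 22 weeks, 0.10 to 0.40 for the difference of the diet effects, and from -0.23 to -0.053 for time on normal diet. Those of SREBP and its control ran from -0.11 to 0.18 for diet at 6 weeks and from -0.033 to 0.13 for the difference of the diet effects.

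Replicate numbers are shared by the groups, but same-numbered libraries deviated together in only some pairs (correlations from -0.25 to 0.21), so the numbers name samples and do not pair them. With the replicate number as a block, Insig1 still passed for diet at 22 weeks, as 1 of 28 members, and the calls over all loci were 3 higher and 25 lower at 6 weeks and 23 and 3 at 22 weeks. Stard4 no longer passed with time on Western diet (-0.83, adjusted p = 0.0777).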

Other observations

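The tissue marker lists give the makeup of the libraries beside which the sterol genes were read. Thymocyte markers summed to 15.2 to 21.7 CPM on normal and 28 to 456 CPM on Western diet at 6 weeks, with Rag1 at 317 CPM in Western-diet replicate 1, and to 4.90 to 27.0 and 21.0 to 161 CPM at 22 weeks. Ptcra, a defining thymocyte gene, was at 0 in at least 1 library of each group. Skeletal muscle markers summed to 25.5 to 163 and 3.09 to 48.3 CPM at 6 weeks and to 8.03 to 44.8 and 31.0 to 264 CPM at 22 weeks. Hepatocyte markers reached 654 and 387 CPM at 6 weeks and 31.5 and 17.9 CPM at 22 weeks, with Apoa1, Ttr and Fgb at 0 in a library of both 22-week groups. Markers of dividing cells ran from 11.2 to 176 CPM over all libraries, those of endothelium from 737 to 1920 CPM, and those of Schwann cells from 38.0 to 232 CPM, with none at 0.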
